A study of Mus musculus with 4 samples.

Results

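The 42 genes described here mark endothelium, the cell layer that lines blood and lymph vessels, or act in the growth of vessels. They were chosen by gene name from the 18194 genes that the array names with a probe set of their own. No rule on their signals was used, but earlier results of these data were known. All 42 were measured, by 74 of the 34958 probe sets that name 1 gene. The RNA came from molar teeth of 60 Swiss Webster mouse pups of both sexes, taken by hand between 1 and 10 days after birth and combined into 1 pool, so age, sex and cell type were not separated. The pool was hybridised to 4 Affymetrix Mouse Genome 430 2.0 arrays, which form a single group with no control tissue and no treatment analysed here. The SD between arrays is therefore technical, and p-values measure only that spread.

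Endothelial cells are held together by adhesion proteins such as PECAM1 and VE-cadherin and are steered by secreted factors. VEGF proteins act through the receptor kinases FLT1, KDR and FLT4 to drive sprouting, and angiopoietins act through the TIE receptors to settle or loosen new vessels. Adrenomedullin and apelin act through G protein-coupled receptors, and hypoxia-inducible factors raise many of these signals when oxygen is low. In a developing tooth, capillaries enter the dental papilla and later lie beside the odontoblasts, the cells that make dentin.

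Each value is a MAS5 signal, Affymetrix's summary of a probe set on a linear scale, and a gene is shown by the brightest of its probe sets, judged by mean log2 signal. Signals of different probe sets depend on the probes as well as on the RNA, so genes are set against a background threshold and not against each other. The threshold of an array was the 95th percentile of 86 probe sets for olfactory, vomeronasal and taste receptor genes, and it ranged from 996 to 1295 over the arrays. A gene was called above background if a probe set of its own exceeded the threshold on all 4 arrays. A signal that did not reach it shows that the gene was not detectable by this rule, not that it was absent. In pooled tissue, fewer cells of a type and less RNA per cell cannot be told apart.

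Genes that define the tissue were above background for 7 of 7 ameloblast markers and 6 of 6 measured odontoblast markers, against 51.6% of all genes. Their mean ratios to the threshold ran from 19.1-fold (Klk4) to 169-fold (Amelx). Array 4 stood slightly apart. Its log2 signals correlated with those of the other arrays at a mean r of 0.969 across probe sets above background, against 0.974 to 0.975 for arrays 1 to 3, where probe sets are not independent replicates. Across the members above background the same means were 0.977 for array 4 and 0.979 to 0.980 for the others. Without array 4, 27 members were above background.

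All 4 arrays passed for 26 of the 42 members (61.9%), against 51.6% of all 18194 genes. Of the other 16 members, 5 exceeded the threshold on 3 arrays, 3 on 1 array and 8 on none. A gene with more probe sets has more chances to be called, and members had 1 probe set in 22 cases, 2 in 12, 3 in 4 and 4 in 4. Among all genes the share above background was 35.2% for those with 1 probe set, 60.1% with 2, 73.4% with 3 and 82.1% with 4 or more. The members' counts were 14 of 22, 8 of 12, 1 of 4 and 3 of 4. Weighted by the members' own numbers of probe sets, the shares of all genes come to 21.2 of 42. The count over the whole set thus lies only somewhat above that of all genes, and the counts by role, which were not tested against each other, are given in turn with the plot of all members. Each count by role or cell type is to be read against the 51.6% of all genes and the shares by number of probe sets. None of these counts was tested against those shares.

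As a description of the probe sets, not of RNA amounts, the median log2 signal was 10.96 over the members and 10.69 over all genes, and the median member stood at percentile 53.9 of all genes. Among genes above background the median was 12.09 for members and 12.24 for all such genes. Of the 26 members above background, 6 (23.1%) had a mean less than 2-fold over the threshold and 8 (30.8%) at least 5-fold, against 17.0% and 42.0% of all genes above background. The 8 were Egfl7, Eng, Ramp2, Aplnr, Pdpn, Ets1, Hif1a and Epas1. The median SD of log2 signal between arrays was 0.12 for members above background and 0.31 for the rest, against 0.16 and 0.62 over all genes.

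**Figure D1:**
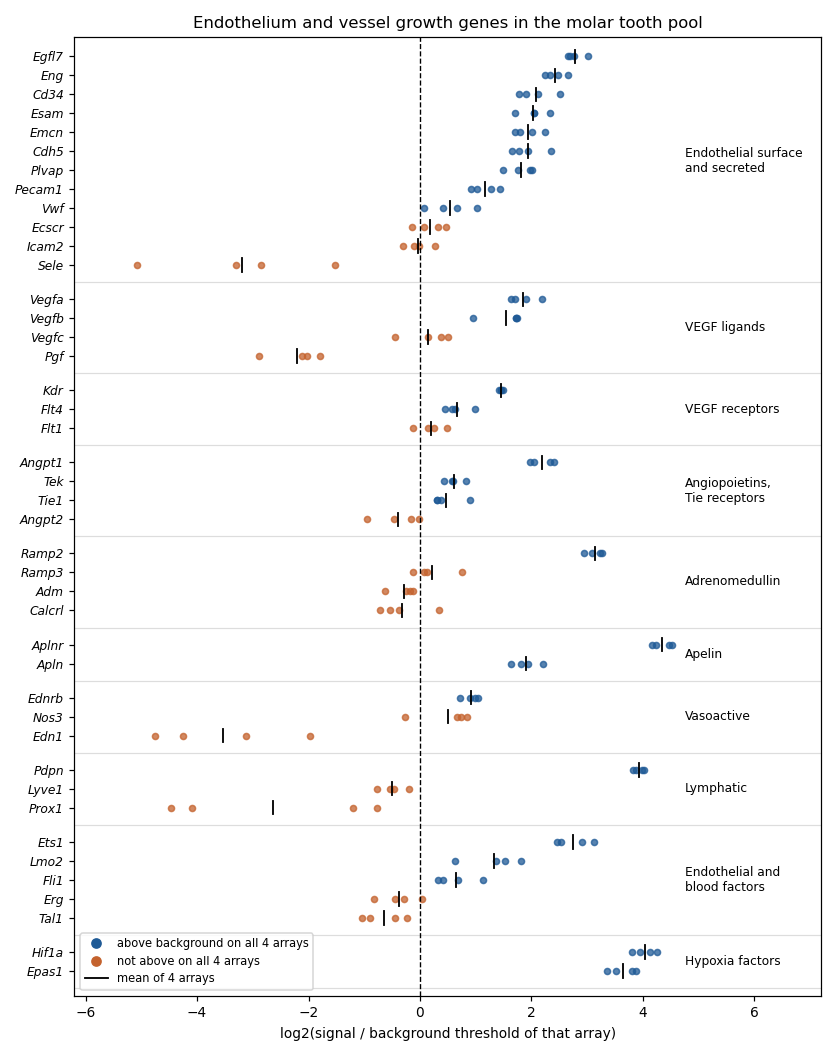
The horizontal axis gives log2 of the signal over the background threshold of the same array for the 42 members, grouped by role, with 1 point for each of the 4 arrays and a black bar at their mean. Blue members lie right of the dashed line on all 4 arrays (26 genes), and orange members do not (16 genes), with Sele, Pgf, Edn1 and Prox1 far to the left.

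Genes that mark the endothelial surface, and proteins that endothelium secretes, were above background for 9 of 12 members. VE-cadherin, the adhesion protein of endothelial junctions, is encoded by Cdh5, whose signal was 5087, 4223, 4053 and 4353 on arrays 1 to 4. Pecam1, an adhesion molecule of endothelium and platelets, had 2696, 2652, 2427 and 2574. Each array was above its threshold for both genes, on average 3.81-fold for Cdh5 and 2.23-fold for Pecam1. By limma's one-sided test against the threshold, adjusted over all genes, p was 4.14e-12 for Cdh5 and 3.16e-07 for Pecam1.

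Esam, another junction molecule, had signals of 4090, 5527, 4219 and 5242, which was 4.09-fold over the threshold on average. Emcn (endomucin, a sialomucin of capillary and venous endothelium) had 4012, 5184, 4237 and 4384. Plvap, which forms the diaphragms of fenestrated capillaries, had 3887, 4432, 3628 and 4292. These 3 genes lay between 3.50-fold and 4.09-fold over the threshold, and no array came closer to it than 2.80-fold. Eng (endoglin, a TGF-beta co-receptor of endothelium) had 6248, 6101, 6533 and 5992, with an SD of 234 around a mean of 6218. Egfl7, a secreted protein of endothelial cells, had 8096, 7466, 8365 and 7974, and all 4 of its probe sets were above background. Cd34, a sialomucin shared by endothelium and blood progenitors, had 5658, 4778, 4879 and 4350.

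Vwf and 3 further members of this role lay close to the threshold or below it. Vwf (von Willebrand factor, stored by endothelium and platelets) had 2022, 1749, 1726 and 1328. It exceeded the threshold on each array, but on array 4 by only 1.05-fold, and limma gave an adjusted p of 0.0125. Ecscr, an endothelial surface regulator of migration, had 1379, 986, 1630 and 1334 and was below the threshold on array 2 alone. Icam2, an adhesion molecule for leukocytes, had 929, 1093, 1055 and 1528 and passed on array 4 alone. Sele (E-selectin, which appears on inflamed endothelium) had 138, 32.4, 131 and 443, so that no array reached the threshold.

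Blood cells share some of these markers, and their part in the signals was not tested. Of 6 measured platelet markers, Pf4 at 6251 ± 260 and Gp1bb at 1873 ± 436 (SD, n = 4 arrays) were above background. Itga2b, at 1749 ± 390 and 1.48-fold over the threshold on average, passed on 3 arrays and was therefore not called. Gp6, Gp9 and Ppbp passed on none. The platelet markers summed to 10093 to 10985 signal units over the arrays. Such sums, here and below, depend on the probe sets and on the number of genes listed, and include genes not above background. They do not measure amounts of a cell type and cannot be compared between lists. Of 12 leukocyte and macrophage markers, 11 (91.7%) were above background, all but Aif1, against 51.6% of all genes. The 12 markers summed to 50988 to 55720.

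The transcription factors of endothelial and blood cells were above background for 3 of 5 members. Ets1, a founding ETS factor expressed in many cells, had signals of 8648, 8163, 7541 and 6972, or 6.75-fold over the threshold on average. Fli1, an ETS factor of endothelium and blood, had 2193, 1370, 2068 and 1697. Lmo2, a bridging protein of blood and vessel gene complexes, had 2861, 3834, 3318 and 1957. All 4 arrays passed for these 3 genes, but Fli1 came as near as 1.25-fold on array 2 and had a limma adjusted p of 0.00312. Erg, an ETS factor of mature endothelium, had 1019, 803, 1070 and 719 and passed on array 1 alone. Tal1, a partner of LMO2 in blood and endothelial precursors, had 846, 810, 700 and 616 and passed on none. Red cell markers, whose precursors also express Tal1 and Lmo2, were above background for 2 of 6 measured genes (Alas2 and Epor). Slc4a1 passed on 3 arrays, Gata1, Klf1 and Epb42 passed on none, and the list summed to 8051 to 9873.

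ETS factors bind a GGAA core, and the windows before the starts of several members are shown because Ets1 and Fli1 were above background. RefSeq's promoter table for GRCm38.p6 held 25 of the 42 members. The 250 bases before each start were searched on both strands for AGGAAG or CGGAAG, which differ in the first base alone. Capitals mark each match below, as CTTCCT where it lies on the other strand. Windows run 5′ to 3′ along the gene and end at the last base before the start. Only windows that hold a match are shown, so that each has one was fixed by that choice.
Emcn (chr3:137340828-137341077, + strand): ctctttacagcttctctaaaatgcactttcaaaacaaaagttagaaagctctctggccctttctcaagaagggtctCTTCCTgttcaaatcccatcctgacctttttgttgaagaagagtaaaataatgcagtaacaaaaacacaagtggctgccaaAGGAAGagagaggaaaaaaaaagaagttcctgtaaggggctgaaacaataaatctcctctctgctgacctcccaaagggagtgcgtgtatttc
Eng (chr2:32646345-32646594, + strand): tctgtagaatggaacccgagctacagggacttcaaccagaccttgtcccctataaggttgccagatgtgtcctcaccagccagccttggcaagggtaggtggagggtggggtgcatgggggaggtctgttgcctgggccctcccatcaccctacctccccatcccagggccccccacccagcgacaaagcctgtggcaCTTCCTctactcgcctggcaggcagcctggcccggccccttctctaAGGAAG
Egfl7 (chr2:26580833-26581082, + strand): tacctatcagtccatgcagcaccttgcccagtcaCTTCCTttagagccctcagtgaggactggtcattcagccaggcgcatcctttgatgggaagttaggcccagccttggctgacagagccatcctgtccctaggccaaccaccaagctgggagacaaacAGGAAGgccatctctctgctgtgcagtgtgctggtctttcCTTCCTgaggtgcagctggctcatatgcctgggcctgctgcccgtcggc
Tie1 (chr4:118489850-118490099, - strand): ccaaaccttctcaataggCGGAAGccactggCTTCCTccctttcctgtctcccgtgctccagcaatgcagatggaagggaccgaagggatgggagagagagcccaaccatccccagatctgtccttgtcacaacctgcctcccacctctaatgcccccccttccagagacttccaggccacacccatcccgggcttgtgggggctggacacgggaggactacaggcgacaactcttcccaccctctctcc
Flt1 (chr5:147726012-147726261, - strand): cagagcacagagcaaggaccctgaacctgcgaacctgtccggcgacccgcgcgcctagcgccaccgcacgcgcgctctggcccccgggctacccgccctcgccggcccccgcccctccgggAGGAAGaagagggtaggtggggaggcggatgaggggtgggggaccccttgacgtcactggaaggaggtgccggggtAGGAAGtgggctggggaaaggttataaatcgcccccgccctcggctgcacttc
Apln (chrX:48034854-48035103, - strand): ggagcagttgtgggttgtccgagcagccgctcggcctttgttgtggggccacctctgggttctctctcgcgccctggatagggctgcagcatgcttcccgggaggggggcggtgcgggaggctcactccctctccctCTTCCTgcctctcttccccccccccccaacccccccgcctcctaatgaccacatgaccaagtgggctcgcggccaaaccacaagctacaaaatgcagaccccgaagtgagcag
Emcn, Eng, Tie1 and Flt1 held 2 matches each, Egfl7 held 3 before the first of its 3 starts, and Apln held 1. In Eng a match ended at the base before the start.

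Over the 25 members in that table, 11 (44.0%) held a match before at least 1 start, against 42.5% of the 27025 genes in the table. The share was 6 of 14 (42.9%) for members above background and 5 of 11 (45.5%) for the others, so these letters did not divide the members by their call. By role, with no test, a match was held by 5 of 5 endothelial surface genes in the table, 0 of 4 VEGF ligands, 1 of 3 VEGF receptors, 1 of 2 angiopoietin and Tie genes, 2 of 3 adrenomedullin genes, 1 of 1 apelin genes, 0 of 2 vasoactive genes, 0 of 2 lymphatic genes, 1 of 2 endothelial and blood factors and 0 of 1 hypoxia factors. These numbers are too small to set the roles apart. A match is a description of letters and does not show binding. The hypoxia response core ACGTG, searched in the same way, was found before 3 of 25 members (12.0%), Hif1a, Pdpn and Vegfa, against 18.5% of all genes in the table.

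VEGF ligands were above background for 2 of 4 members. Vegfa, the main driver of vessel sprouting, had signals of 4532, 4093, 4208 and 3954, on average 3.62-fold over the threshold, and its other probe set was also above background. Vegfb, a ligand of FLT1, had 3305, 3641, 2510 and 4233. Both ligands passed on all 4 arrays, Vegfb with the wider spread (SD 719 against 247). Vegfc, the ligand of FLT4 that drives lymphatic growth, had 1104, 1558, 1676 and 936 and was below the threshold on array 4 alone. Pgf (placental growth factor, a ligand of FLT1) had 289, 254, 175 and 312 and passed on none.

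The VEGF receptor genes were above background for 2 of 3 members. Kdr, the main signalling receptor for VEGFA, had 2743, 3079, 3539 and 3390, and its ratio to the threshold ran from 2.68-fold upward with a mean of 2.74-fold. Flt4, the receptor of lymphatic and young blood endothelium, had 1962, 1690, 1933 and 1736, or 1.58-fold on average with a limma adjusted p of 0.00165. Kdr was thus above the threshold by much more than its spread, and Flt4 by a small step on every array by its brightest probe set. The second probe set of Flt4 had 855, 1036, 716 and 808, below the threshold on each array. Flt1, a high-affinity receptor that also acts as a VEGF trap, had 1099, 1306, 1195 and 1775 by its brightest probe set. It passed on all arrays but array 3, and none of its 4 probe sets passed on all 4. The co-receptor gene Nrp1, not a member, was above background at 8722 ± 677 (SD, n = 4), as was the semaphorin receptor gene Plxnd1 at 14336 ± 3483.

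Angiopoietin and Tie genes were above background for 3 of 4 members. Angpt1, the agonist of TIE2, had signals of 5263, 5563, 5118 and 5243 by its brightest probe set, on average 4.58-fold over the threshold with an SD of 189. Its second probe set was below the threshold on each array, and by the median probe set Angpt1 was not above background. Angpt2, which opposes or weakens the TIE2 signal in remodelling vessels, had 981, 980, 939 and 657 and passed on no array. The receptor genes Tek (TIE2) and Tie1 had 1761, 1630, 1968 and 1714, and 1851, 1422, 1603 and 1567. Both receptors passed on every array at 1.52-fold and 1.39-fold on average, with limma adjusted p-values of 0.00322 and 0.0256. Angpt1 is usually made by mural and mesenchymal cells rather than endothelium. In this pool 8 of 10 mural cell markers (80.0%) were above background, against 51.6% of all genes. Highest were Acta2 at 29157 ± 1468 and Rgs5 at 25111 ± 651. Des passed on 3 arrays and Myh11 on none, and the 10 markers summed to 95302 to 98914. Their part in the Angpt1 signal was not tested.

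The adrenomedullin system gave 1 of 4. Its receptor is the CALCRL protein paired with RAMP2 or RAMP3, which set its ligand preference. Ramp2 had signals of 9328, 10613, 9994 and 10738, on average 8.78-fold over the threshold. Its partner gene Calcrl had 1258, 850, 894 and 772, so that array 1 alone passed, and none of its 3 probe sets was above background. The ligand gene Adm had 887, 1005, 1091 and 820 and passed on no array. Ramp3 had 1692, 1007, 1409 and 1327 and was below the threshold on array 2 alone. Ramp1, which pairs with the same receptor for another peptide and is not a member, was above background at 2182 ± 272. A further 2 probe sets name Ramp2 together with the neighbouring gene Vps25 and were not counted.

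Both apelin genes were above background. Aplnr, the apelin receptor gene of sprouting and venous endothelium, had signals of 22026, 25233, 23242 and 24003 by its brightest probe set. That was on average 20.4-fold over the threshold. This probe set has the suffix _a, which marks sequence shared by transcripts of the same gene. The second probe set of Aplnr, without a suffix of this kind, had 3823, 4695, 4067 and 5275. Both were above background, but the mean log2 ratio to the threshold was 4.35 by the brightest and 1.94 by the second. Apln, the ligand gene, known from endothelial tip cells, had 4600, 4222, 4036 and 4467. By the brightest probe sets all arrays passed for both genes by at least 3.12-fold, and limma gave adjusted p = 4.1e-20 for Aplnr and 2.99e-12 for Apln. The alternative ligand gene Apela, not a member, was not above background at 328 ± 207.

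**Figure D2:**
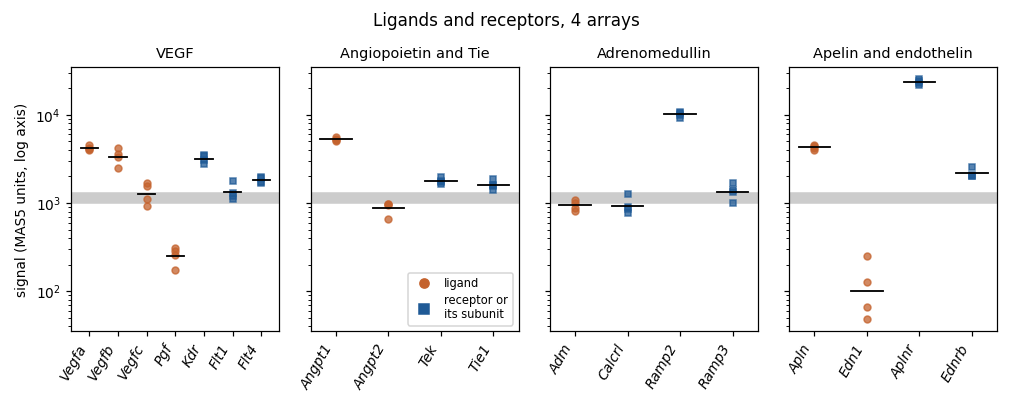
The vertical log axis gives the signal on each of the 4 arrays for ligand genes (orange circles) and genes of receptors or their subunits (blue squares), with black bars at the geometric mean and a grey band over the thresholds of the arrays (996 to 1295). Vegfa, Vegfb, Angpt1, Apln, Kdr, Ramp2 and Aplnr lie clear of the band, while Vegfc, Flt1, Ramp3, Adm and Calcrl lie on or near it and Pgf and Edn1 far below.

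Among vasoactive genes 1 of 3 was above background. Ednrb, the endothelin B receptor gene of endothelium and neural crest cells, had signals of 2041, 2027, 2571 and 2080, on average 1.87-fold over the threshold, and its other 2 probe sets were not above background. Edn1, the endothelial vasoconstrictor gene, had 253, 126, 47.7 and 66.2 and passed on none. Nos3 (endothelial nitric oxide synthase) had 1792, 1738, 1070 and 2122. It passed on all arrays but array 3, and it was the 1 member on which the rule and limma differed, with an adjusted p of 0.0287. Ednrb also marks melanocytes and Schwann cells. Of 6 melanocyte markers 2 were above background (Mitf and Dct), while Tyr, Tyrp1, Pmel and Mlana were not, and the list summed to 4266 to 6637. Of 5 measured Schwann cell markers 3 were above it (Mbp, Erbb3 and Sox10), Foxd3 and S100b were not, and the sum was 10055 to 12307. Their part in the Ednrb signal was not tested.

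Lymphatic markers divided sharply. Pdpn (podoplanin), a mucin-like protein of lymphatic endothelium that bone cells and epithelia also make, had signals of 15773, 17852, 18973 and 17965, on average 15.2-fold over the threshold. Lyve1, the hyaluronan receptor gene of lymphatic endothelium and some macrophages, had 864, 791, 757 and 870. Prox1, the transcription factor that specifies lymphatic endothelium, had 45.0, 645, 75.8 and 548. Lyve1 and Prox1 passed on no array with any of their probe sets, so the Pdpn signal stood without the other lymphatic genes of the role. Of 6 further lymphatic genes measured, 2 were above background, Nrp2 at 4186 ± 436 and Sox18 at 4143 ± 891, both also active in blood vessels. Itga9 and Ccbe1 lay near the threshold, at 1.19-fold and 0.997-fold on average, and passed on 3 arrays each. Foxc2 and Mmrn1 passed on none. The odontoblast markers summed to 475145 to 650921 over the arrays and the ameloblast markers to 552378 to 746108, and the part of these cells in the Pdpn signal was not tested.

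Both hypoxia-inducible factor genes were above background. Hif1a, the broadly expressed oxygen-regulated subunit, had signals of 18974, 19047, 18134 and 19387, on average 16.3-fold over the threshold. Epas1 (HIF-2-alpha), which is enriched in endothelium, had 14693, 15325, 13165 and 14539, or 12.5-fold. By these brightest probe sets no array came nearer to the threshold than 10.2-fold for either gene. By the median probe set the mean log2 ratio to the threshold fell from 4.03 to 1.82 for Hif1a and from 3.64 to 1.53 for Epas1, whose second probe set (940, 550, 865 and 817) was below the threshold on each array. Both proteins are controlled mainly by their breakdown, which mRNA does not show. Of 18 further genes of oxygen sensing and known hypoxia targets, 15 (83.3%) were above background, against 51.6% of all genes. Highest were Pgk1 at 80250 ± 8205, Ldha at 36832 ± 2106 and Ndrg1 at 26162 ± 3578. Ankrd37, Car9 and Egln3, which belong to the same list, were not above background, and neither was the member Adm, another known target.

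Related genes outside the set were counted by the same rule. Of 81 measured genes of endothelium, vessel signals, vascular transcription factors, lymphatics and hypoxia, 54 (66.7%) were above background, against 51.6% of all genes. By the median probe set 40 of the 81 passed, against 39.3% of all genes. The counts by list below were not adjusted for the number of probe sets per gene. In the list of 30 further endothelial genes, 20 were above background, led by Cav1 (9121 ± 994), Cd93 (7020 ± 996) and Mcam (5021 ± 592). Among the 10 that were not, Adgrl4, Myct1 and Notch4 passed on 3 arrays. The Notch ligand gene Dll4, Selp (P-selectin), Sox17 and Vcam1 passed on 2. The arterial connexin gene Gja5, Bmx and Procr passed on none. Further ligands and receptors gave 9 of 15, led by Plxnd1, Nrp1 and Ackr3 (8424 ± 1081), and Angptl4, a secreted angiopoietin-like protein gene, was above background too (7394 ± 251). The 6 not above it were the ligand genes Edn2, Edn3, Vegfd, Adm2, Apela and Calcb. Of 16 vascular transcription factors 11 were above it, led by Foxo1 at 21308 ± 1431, Klf4 at 20814 ± 3266 and Foxf1 at 12449 ± 1242, genes that other tissues also express.

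Probe sets of the same gene often disagreed. Of the 20 members with several probe sets, 4 had all of them above background (Eng, Egfl7, Vegfa and Aplnr), 8 had some, and 8 had none. In all, 36 of the 74 probe sets (48.6%) were above background, against 42.5% of all probe sets naming 1 gene. Angpt1, like Epas1 and Flt4, had a second probe set below the threshold on each array, which for Angpt1 gave 745, 641, 1013 and 225. Each of these genes was therefore above background by 1 probe set and below it by the other. The second probe set of Cdh5 had 1253, 961, 1113 and 1353 and passed on 2 arrays. Fli1 likewise had 1 probe set above background and 1 not, Ednrb 1 of 3, and Ets1 and Hif1a 3 of 4.

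**Figure D3:**
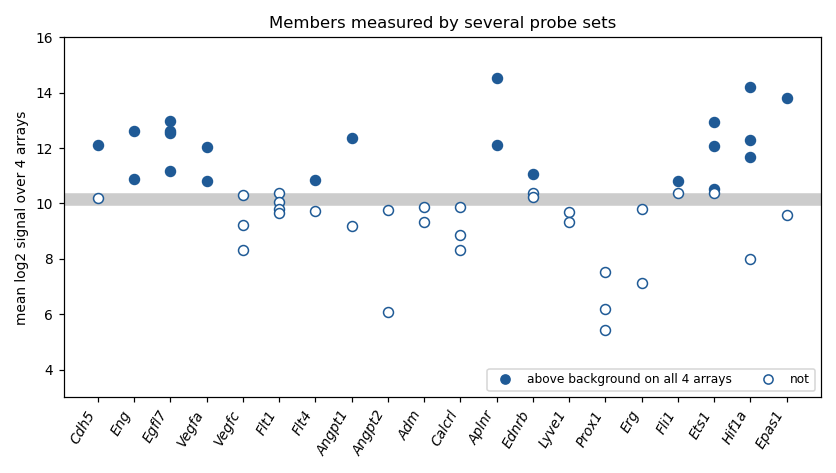
Each circle is 1 probe set of the 20 members that have several, with the mean log2 signal over 4 arrays on the vertical axis, filled where it was above background on all 4 arrays. The grey band spans the thresholds of the arrays, and Angpt1, Epas1 and Hif1a each have at least 1 probe set well above it and 1 below it.

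The call depended on the rule for 18 of the 42 members. Under the 12 other rules and settings run, 20 members stayed above background wherever they were measured, and 4 (Sele, Pgf, Edn1 and Prox1) stayed below. With a threshold at the 99th percentile, 23 members and 48.2% of all genes passed, and Vwf, Tie1 and Fli1 were lost. With the 75th percentile 38 members and 65.3% of all genes passed, among them Adm, Calcrl, Lyve1, Angpt2, Erg, Tal1 and Icam2. A threshold from testis and retina probe sets gave 25 members and 51.0%, without Fli1. Passing on at least 3 arrays gave 31 and 55.9%, adding Ecscr, Vegfc, Flt1, Ramp3 and Nos3.

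Quantile normalisation between arrays gave 26 members and 51.6% of genes. The median probe set of a gene gave 23 and 39.3%, without Flt4, Angpt1 and Ednrb. Probe sets free of the suffixes _a, _s and _x measured 34 members, of which 20 passed, against 46.6% of genes. The 8 members measured only by suffixed probe sets include 6 that were above background, Pecam1, Emcn, Eng, Egfl7, Vegfb and Lmo2. These suffixes mark sequence shared by several transcripts, for _a those of the same gene. The run is therefore not a check on sequence shared between genes alone. Leaving out array 1, 2, 3 or 4 gave 26, 28, 28 and 27 members and 51.8%, 52.0%, 52.8% and 54.1% of genes. By limma's test, 27 members and 51.1% of genes passed at an adjusted p under 0.05, namely the 26 and Nos3. The members' share exceeded that of all genes under each of these rules, by amounts that the plot of call rules shows.

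**Figure D4:**
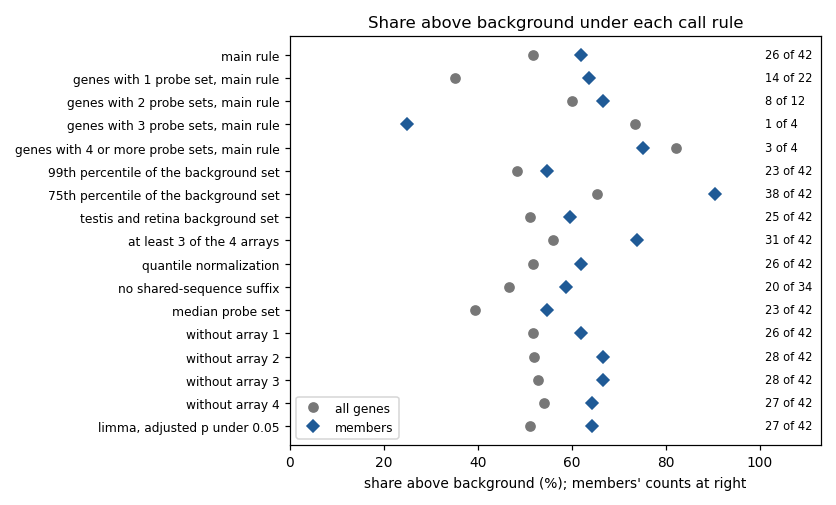
The horizontal axis gives the percentage above background of all genes (grey circles) and of the members (blue diamonds) under each rule, with the members' counts at the right edge. The diamonds lie right of the circles in every row except the genes with 3 probe sets (1 of 4 members) and those with 4 or more (3 of 4).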

How the data were processed

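The deposited table holds signal intensity for 45101 probe sets on 4 one-colour arrays of 1 RNA pool. The authors used MAS5, per the submitters' processing notes. No source used here gives its version, settings or detection calls, or says whether the arrays were labelled separately. Each array's mean after trimming 2% of probe sets at either end was 2500, so all had been scaled to 1 target. MAS5 is noisy at low signal. Arrays have no read depth, and their number limits the precision.

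Probe sets were named from GEO's platform annotation, leaving out those with several genes. No build is stated for the array table, so the only coordinates given are those of the RefSeq promoter windows (GRCm38.p6). log2 of the deposited signal over the threshold was tested with limma 3.58.1 in R 4.3.3 (intercept only, mean-variance trend, one-sided, Benjamini-Hochberg over all 18194 genes), taking the threshold as known. Scripts were tested on simulated data. The testis and retina background held 46 probe sets. All members are named. Of other lists, the up to 3 genes of highest signal are named, and any further ones were picked after their values were seen. Members, lists and rules were chosen with earlier results of these data known.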

Additional observations from a re-analysis of the deposited data

Results flagged for a closer look

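A gap test on 44 sets of 4 values (the members' log2 signals, their median and their count over the threshold) marked 2 as having a single distant array. Chance marks about 1 set in 20, or 2.2 here. Angpt2 was lower on array 4, at 9.36 on the log2 scale against 9.87 to 9.94 on the others, and all of these lay below the threshold. Ednrb was higher on array 3, at 11.33 against 10.98 to 11.02.

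Signal also appeared in 2 probe sets outside the member counts, which name Ramp2 together with its neighbour Vps25. They had 3741 ± 765 and 8625 ± 300 (SD, n = 4 arrays) and were above background on all 4 arrays. Their signal cannot be assigned to either gene.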

How the results depend on the processing

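The count of 26 members was within 1.5 times of itself under all 12 alternatives (20 to 38), as were the limma count of 27 (21 to 37 over its alternatives, 26 without the trend) and the 54 related genes (40 to 69). The 20 came from the run without suffixed probe sets, which measured 34 of the 42 members and 72 of the 81 related genes. Counts of that run are therefore not on the same base as the others. Leaving out 1 array gave 26 to 28 members, 24 to 27 by limma and 54 to 57 related genes. The median log2 signal of 10.96 moved to 10.80 without suffixed probe sets and 10.74 by the median probe set, more than its SD of 0.11 between arrays. Without suffixes the endothelial surface role fell to 5 of 8 measured and the VEGF ligands to 1 of 3, because fewer genes were measured. By the median probe set VEGF receptors gave 1 and vasoactive genes 0. At the 75th percentile adrenomedullin genes gave 4, vasoactive genes 2, lymphatic genes 2 and endothelial and blood factors 5. With at least 3 arrays adrenomedullin genes gave 2 and vasoactive genes 2. Leaving out 1 array gave 1 to 2 for adrenomedullin genes (2 without array 2, which adds Ramp3) and 1 to 2 for vasoactive genes (2 without array 3, which adds Nos3). These role counts moved by more than 1.5 times, and smaller moves also occurred. Among them, with at least 3 arrays VEGF ligands gave 3, VEGF receptors 3 and endothelial surface genes 10. Without array 4 VEGF ligands gave 3, and without array 3 VEGF receptors gave 3. At the 99th percentile and by the median probe set, angiopoietin and Tie genes gave 2. Where a cause is not named, the cause was not tested. No member above background had a mean below the threshold under any alternative run. No paired analysis was possible because the arrays form 1 group. Signals near the threshold of 1163 ± 142 (SD, n = 4 arrays) limit the calls of Vwf, Tie1, Fli1, Ecscr, Vegfc, Flt1, Ramp3 and Nos3.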
